A study of Arabidopsis thaliana with 8 samples.

Results

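A set of 10 MADS-box transcription factor genes known for setting flowering time was followed in leaves of dcl1 plants and of wild-type plants of Arabidopsis thaliana. They are FLC, its 5 paralogs MAF1 to MAF5, and SVP, SOC1, FUL and AGL16. The genes were picked by locus identifier, not by a threshold on their values, and are 10 of the 22546 loci with a count in at least 1 file. This set and the pathway lists below were chosen with earlier results of these data known. The shares of all loci called, given beside their counts, are therefore context and not a test. All 10 kept enough counts to be tested in every comparison.

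The libraries fall into 4 groups of 2: dcl1 with high definition (HD) adapters, dcl1 with standard Illumina adapters, wild type with HD adapters and wild type with standard adapters. HD adapters end in random bases at their ligation junction, which standard adapters lack. The study's design text says that the same RNA was used for either kind of library, but not which libraries share it. The HD and standard libraries of a genotype with the same replicate number in their titles were taken as 1 RNA sample, which gives 4 RNA samples, 2 of dcl1 and 2 of wild type. Across loci, the differences of replicate 1 from replicate 2 correlated between the adapters at 0.0505 in dcl1 and 0.131 in wild type, so the values themselves tie these libraries together only weakly, and every value on summed counts rests on this match. All plants were grown at 25 °C by day and 18 °C by night with 16 h of light and had no treatment. The labels give neither the dcl1 allele, the accession of the plants nor their age, and nothing in them says that replicates were separate plants, so p-values measure only the spread between these samples.

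DCL1 is the nuclease that cuts microRNAs out of their precursor transcripts. FLC is the central repressor of flowering, and it acts by binding and repressing FT, which encodes the mobile flowering signal, and SOC1. FLC transcription is raised by FRI and by chromatin factors and is lowered by the autonomous pathway and, after winter cold, by Polycomb proteins. MAF1, also called FLM, and MAF2 to MAF4 are FLC-like repressors, and SVP is a repressor that binds DNA together with FLC and MAF1. SOC1 and FUL promote flowering. AGL16 is the known target of miR824 and acts in stomatal development and as a repressor of flowering.

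The pairing between miR824 and AGL16 is shown because AGL16 is the 1 gene of the 10 with a near-complete microRNA site. In the first line the capitals mark the seed, bases 2 to 8 of the microRNA. In the second line the capital marks the 1 base without a Watson-Crick partner, which forms a G:U pair opposite base 19 of the microRNA. Both were read from the RefSeq TAIR10.1 genome.
miR824-5p: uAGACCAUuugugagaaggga
AGL16 site: tcTcttctcacaaatggtcta

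The microRNA lies at chr4:12625128-12625148 on the plus strand. The site lies at chr3:21180537-21180557 on the plus strand, in exon 7 of 7 of AGL16 and 3′ of its coding sequence. Of 27562 protein-coding loci scanned for sites with at most 1 such position, 2 (0.00726%) had one. The other, AT4G24413, lies opposite the miR824 precursor itself. When the transcripts of the 10 genes were compared with 350 distinct mature microRNA sequences, 8 pairs had at most 4 unpaired positions. The AGL16 pair had 1, and each of the other 7 had 4.

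The first 90 coding bases of the MADS box of FLC and its 5 paralogs are shown because the results separate FLC from genes of very similar sequence. Capitals mark bases that differ from FLC. MAF2 differed at 9 of the 90 bases, MAF1 and MAF3 at 11 each, MAF4 at 16 and MAF5 at 17. All were read from TAIR10.1, FLC and MAF2 to MAF5 from chromosome 5 and MAF1 from chromosome 1.
FLC: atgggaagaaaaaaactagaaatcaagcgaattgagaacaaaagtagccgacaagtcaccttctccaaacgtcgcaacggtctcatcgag
MAF1: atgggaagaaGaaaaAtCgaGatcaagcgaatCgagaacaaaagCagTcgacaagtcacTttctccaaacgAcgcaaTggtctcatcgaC
MAF2: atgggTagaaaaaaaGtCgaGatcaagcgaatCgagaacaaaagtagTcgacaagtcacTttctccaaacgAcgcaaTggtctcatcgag
MAF3: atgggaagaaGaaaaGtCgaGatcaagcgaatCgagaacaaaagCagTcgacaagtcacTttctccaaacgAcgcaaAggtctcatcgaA
MAF4: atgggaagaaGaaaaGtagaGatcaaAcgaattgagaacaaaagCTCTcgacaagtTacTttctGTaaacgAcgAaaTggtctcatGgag
MAF5: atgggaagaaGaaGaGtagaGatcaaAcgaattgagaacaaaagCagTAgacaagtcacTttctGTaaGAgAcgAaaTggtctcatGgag

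Despite this likeness, few 50-base stretches of the genes' transcripts occur elsewhere in the genome or in transcripts of another of these genes. The share of such stretches was 2.66% for MAF3, 0.374% for MAF2, 0.25% for MAF1 and 0 for the other 7 genes. How the authors treated reads with several matches is not given in the sources used here. MAF2 to MAF5 stand in a row within 20.4 kb at chr5:25982254-26002619.

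The libraries held 15772958 to 45929383 counts, of which 17.3% to 28.7% fell on 4 ribosomal RNA loci. Transcripts of DCL1 itself did not pass the test between the genotypes (log2 fold change 0.14 on summed counts, edgeR adjusted p = 0.701) and thus say nothing on the genotype labels. AGO1 and NF-YA2, which microRNAs target, rose by 1.76 and 3.55. The 5 leaf markers summed to between 39732 and 48843 CPM (TMM-normalised counts scaled to 1000000) in dcl1 libraries and to between 38870 and 53189 CPM in wild-type libraries. The 8 flower markers summed to at most 1.64 CPM in dcl1 and 3.66 CPM in wild type, with AP1 and LFY at 0 in all 8 libraries. Shoot apex markers (6 genes) reached 0.0307 CPM in dcl1 and 0.587 CPM in wild type, with WUS, CLV3, KNAT1 and CUC2 at 0 in all libraries. Root markers (4 genes) summed to 1.53 to 3.16 CPM in dcl1 and 1.92 to 3.07 CPM in wild type, with EXP7 at 0 throughout.

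On the counts summed over the HD and the standard library of each RNA sample, FLC, FUL and AGL16 rose in dcl1 and the other 7 genes did not pass the test. The 3 of 10 called stand against 8.85% called among the 19711 loci tested, with 4.3% higher and 4.55% lower in dcl1. The median log2 fold change was 0.16 over the 10 genes and 0.01 over all loci. With HD adapters the same 3 genes were called, all higher, against 4.33% of 19521 loci in either direction and 2.07% higher. With standard adapters FLC and AGL16 were called, both higher, against 4.23% of loci in either direction and 1.87% higher. Libraries of both adapters were made from the same RNA, so these contrasts are not independent of each other or of the summed counts. In these 3 genes all 4 dcl1 libraries lay above all 4 wild-type libraries, in a setting where 15.8% of loci did not overlap and 7.64% lay higher in dcl1. The other 7 genes overlapped between the genotypes.

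**Figure D1:**
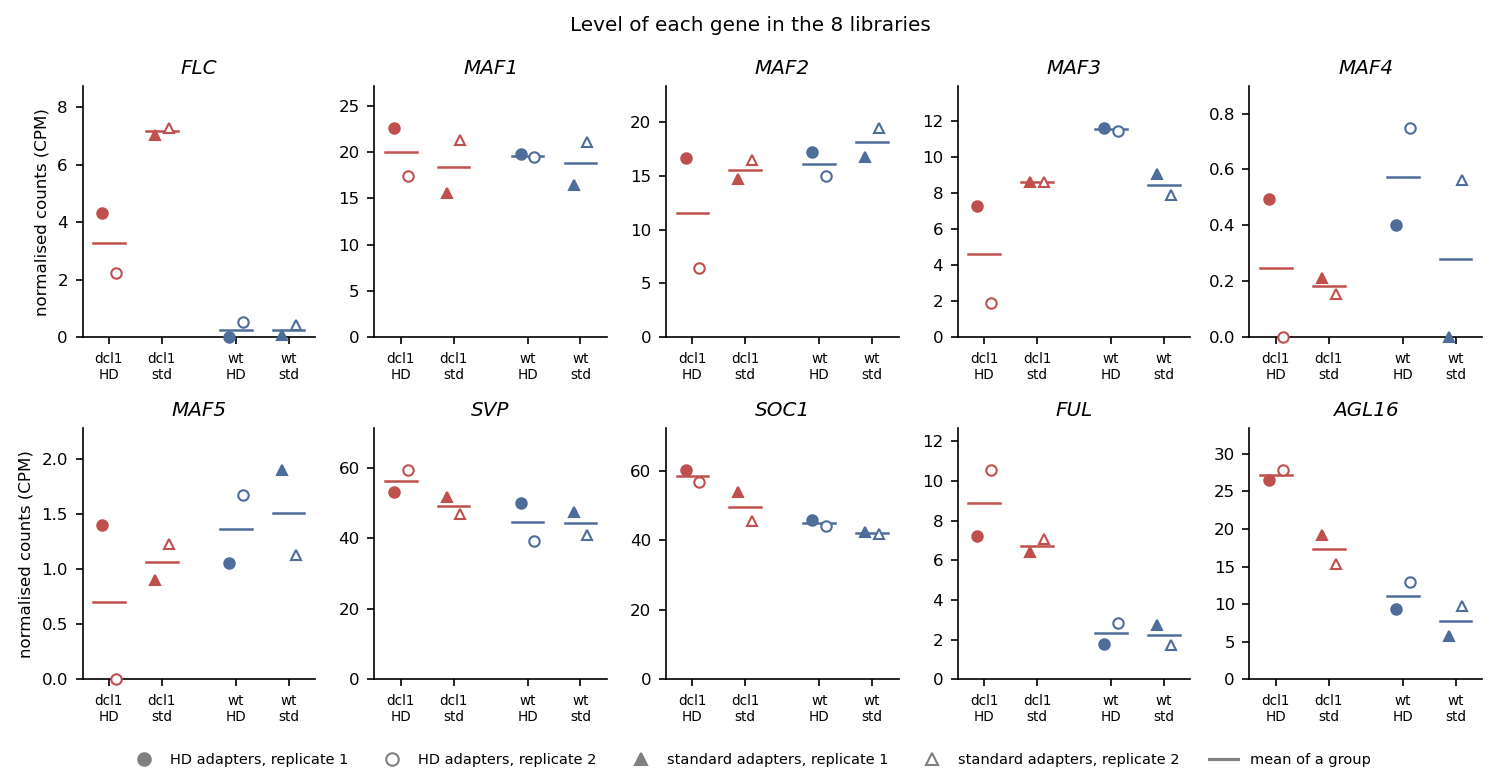
Normalised counts (CPM, linear axes from 0) of each of the 10 genes in the 8 libraries, dcl1 in red and wild type in blue, circles for HD and triangles for standard (std) adapters, filled for replicate 1 and open for replicate 2, with a line at the mean of each group of 2. FLC, FUL and AGL16 show no overlap between the genotypes, while the open dcl1 HD circle (replicate 2) sits low for MAF2 and MAF3 and at 0 for MAF4 and MAF5.

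FLC (AT5G10140, chr5:3173382-3179448, minus strand) was nearly undetected in wild-type leaves and clearly detected in dcl1 leaves. It had 4.31 and 2.25 CPM in the dcl1 HD libraries and 7.03 and 7.27 CPM in the dcl1 standard libraries, against 0 and 0.524 CPM in the wild-type HD libraries and 0.0903 and 0.445 CPM in the wild-type standard libraries. The raw counts behind these levels were, in the same order, 200, 37, 133 and 237 in dcl1 and 0, 21, 2 and 19 in wild type. Every dcl1 library was thus above every wild-type library, and the wild-type level rested mainly on replicate 2. In bulk leaf RNA, more RNA per cell and more cells that express the gene cannot be told apart.

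On summed counts FLC averaged 5.38 ± 0.360 CPM in dcl1 and 0.266 ± 0.309 CPM in wild type (SD, n = 2 each), an 18.3-fold difference (log2 fold change 4.19 with SE 0.65, adjusted p = 0.000527 by edgeR's quasi-likelihood test). Without wild-type replicate 1 the log2 fold change was 3.47. Without wild-type replicate 2 the remaining wild-type sample holds 2 counts against 607 in dcl1, a ratio of 113 between the CPM values with a 95% exact interval of 31.1 to 935 that covers counting error only. In libraries of this same RNA, FLC rose with HD adapters (log2 fold change 3.48 with SE 0.99, edgeR adjusted p = 0.0473) and with standard adapters (4.63, SE 1.03, adjusted p = 0.0103). The HD call was lost on leaving out dcl1 HD replicate 1 (2.93), dcl1 standard replicate 2 (3.50) or wild-type HD replicate 1 (2.67), and when the 4 HD libraries alone were fitted (3.52). Without wild-type HD replicate 2 the remaining wild-type HD library is at 0. The dcl1 HD mean of 3.28 CPM is 21.8 times the 0.150 CPM that 3 counts, a floor chosen here, are worth in that library. The standard-adapter log2 fold change was 4.0 without wild-type standard replicate 1. Without replicate 2 the remaining wild-type standard library holds 2 counts against 370 in dcl1, a ratio of 79.6 with a 95% exact interval of 21.9 to 659 for counting error.

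An annotated long non-coding RNA on the opposite strand, AT5G01675, covers 68.1% of the exon bases of FLC. It has no counts of its own among the loci analysed here. Whether counting used strand is not given in the sources used here, and reads from FLC and from its antisense partner cannot be told apart.

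None of the 5 FLC paralogs passed the test in any comparison between the genotypes, and 4 of the 5 had a negative log2 fold change on summed counts. MAF1 (AT1G77080, chr1:28955483-28960234), the temperature-responsive member, had 22.6 and 17.4 CPM with HD and 15.5 and 21.3 CPM with standard adapters in dcl1, against 19.7 and 19.5 CPM with HD and 16.5 and 21.1 CPM with standard adapters in wild type. Its libraries overlapped almost fully, and the 95% interval of its log2 fold change of 0.09 ran from −0.29 to 0.46. A change of MAF1 as large as that of FUL or AGL16 lies outside this interval.

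MAF2 (AT5G65050), which delays flowering after short cold spells, had 16.6 and 6.43 CPM with HD and 14.7 and 16.4 CPM with standard adapters in dcl1, against 17.2 and 15.0 CPM with HD and 16.8 and 19.4 CPM with standard adapters in wild type. MAF3 (AT5G65060), another FLC-like repressor, had 7.31 and 1.88 CPM with HD and 8.62 and 8.59 CPM with standard adapters in dcl1, against 11.6 and 11.5 CPM with HD and 9.03 and 7.91 CPM with standard adapters in wild type. In both genes the low value is that of dcl1 HD replicate 2, while the standard library of the same RNA sample lay with the others. Summed counts gave log2 fold changes of −0.22 for MAF2 (SE 0.19) and −0.49 for MAF3 (SE 0.25, 95% interval −1.02 to 0.04).

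With HD adapters the log2 fold change of MAF3 was −1.29 (SE 0.46, edgeR adjusted p = 0.133) and with standard adapters one of 0.02 (SE 0.45). The difference between these did not pass the test (−1.31, SE 0.64, 95% interval −2.65 to 0.02). MAF3 was called lower with HD adapters when no filter on low counts was used (−1.29) and when dcl1 HD replicate 1 was left out (−2.60), and so was MAF2 in the last case (−1.31). Without dcl1 HD replicate 2 the HD values were −0.65 for MAF3 and 0.06 for MAF2.

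MAF4 and MAF5 were the least abundant paralogs. MAF4 (AT5G65070) had 23 and 0 counts with HD and 4 and 5 counts with standard adapters in dcl1, against 8 and 30 counts with HD and 0 and 24 counts with standard adapters in wild type. MAF5 (AT5G65080), whose transcript is known to rise rather than fall in winter cold, had 1.40 and 0 CPM with HD and 0.899 and 1.23 CPM with standard adapters in dcl1, against 1.05 and 1.67 CPM with HD and 1.90 and 1.12 CPM with standard adapters in wild type. Both genes overlapped between the genotypes, and both were at 0 in dcl1 HD replicate 2, the smallest library, in which 3 counts are worth 0.182 CPM. The 95% interval of the summed log2 fold change ran from −3.54 to 2.14 for MAF4 and from −1.97 to 1.04 for MAF5. A change of several fold in MAF4 thus lies within its interval. The cause of this width was not tested.

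Within the FLC clade, FLC took a larger share of the summed level in dcl1, and MAF2, MAF3 and MAF5 took smaller ones. Per kilobase of transcript, FLC made up 10.7% and 13% of the summed level of the 6 clade genes in the dcl1 RNA samples, against 0.109% and 1.05% in the wild-type samples. The summed level itself was 48.2 and 43.4 CPM per kilobase in dcl1 and 43.6 and 46.5 in wild type, which overlap. MAF1 took 39.1% and 42.4% in dcl1 and 37.6% and 40.0% in wild type. MAF2 took 32.2% and 29.2% in dcl1 and 37.2% and 35.8% in wild type. MAF3 took 13.9% and 12.7% in dcl1 and 20.3% and 17.9% in wild type. Shares of MAF1 overlapped between the genotypes and those of FLC, MAF2, MAF3 and MAF5 did not. No test was made of the shares, which sum to a fixed total, so a larger FLC share by itself lowers the rest. These shares depend on the length used, here the median of the annotated transcripts. Per kilobase of all annotated exons FLC took 21.4% and 26.1% in dcl1 and 0.231% and 2.26% in wild type, and MAF3 took 26.0% and 23.9% in dcl1 and 40.2% and 36.2% in wild type. On that scale MAF2 took 23.5% and 21.3% in dcl1 and 28.8% and 28.1% in wild type, and MAF1 took 22.7% and 24.6% in dcl1 and 23.1% and 25.0% in wild type. The directions of FLC, MAF2 and MAF3 were the same on either scale, while the summed level per kilobase of all exons, 20.3 and 18.3 CPM in dcl1 and 17.3 and 18.2 CPM in wild type, no longer overlapped.

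**Figure D2:**
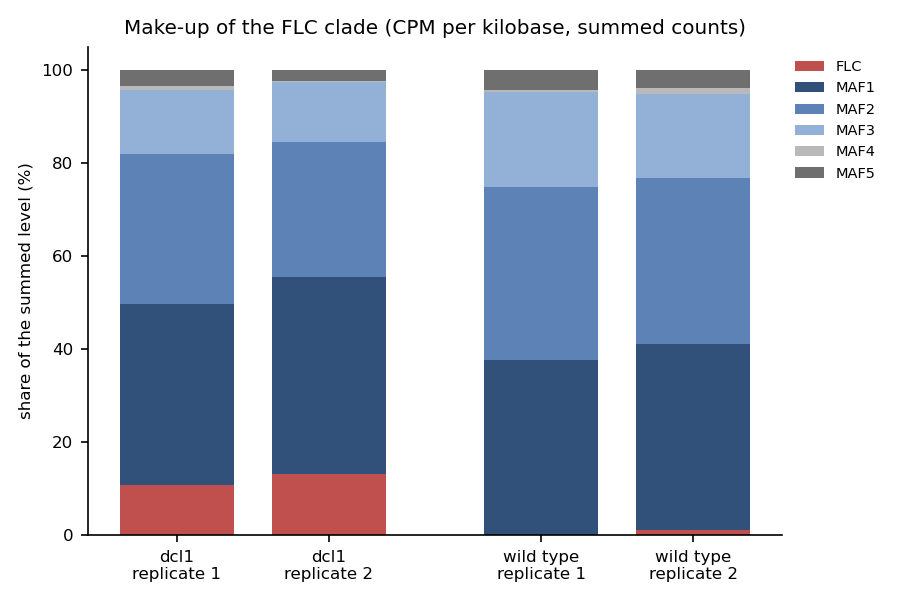
Share (%) of FLC and MAF1 to MAF5 in the summed level of the 6 clade genes, from CPM per kilobase of median transcript length on summed counts, 1 bar for each RNA sample, dcl1 on the left and wild type on the right. FLC (red, at the base) takes 10.7% and 13% in dcl1 and 0.109% and 1.05% in wild type.

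SVP and SOC1, a repressor and a promoter of flowering, were the most abundant of the 10 genes and did not pass the test. SVP (AT2G22540, chr2:9579647-9583901) had 53.1 and 59.5 CPM with HD and 51.9 and 46.8 CPM with standard adapters in dcl1, against 50.02 and 39.3 CPM with HD and 47.6 and 41.0 CPM with standard adapters in wild type. Its summed log2 fold change was 0.24 (SE 0.16, 95% interval −0.09 to 0.56). SOC1 (AT2G45660, chr2:18807505-18811125), which FLC represses, had 60.3 and 56.8 CPM with HD and 53.8 and 45.5 CPM with standard adapters in dcl1, against 46.0 and 44.0 CPM with HD and 42.3 and 41.8 CPM with standard adapters in wild type. Only dcl1 standard replicate 2 fell within the wild-type range of SOC1. The summed log2 fold change of SOC1 was 0.32 (SE 0.15, adjusted p = 0.236 by edgeR), with a 95% interval of −0.0041 to 0.65.

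FUL (AT5G60910, chr5:24502434-24506269, minus strand), which promotes flowering and later acts in cauline leaves and fruit, was higher in dcl1. It had 7.25 and 10.6 CPM with HD and 6.40 and 7.09 CPM with standard adapters in dcl1, against 1.80 and 2.82 CPM with HD and 2.76 and 1.73 CPM with standard adapters in wild type. The lowest dcl1 library exceeded the highest wild-type library of FUL by more than the spread within wild type. On summed counts FUL averaged 7.68 ± 0.915 CPM in dcl1 and 2.28 ± 0.0217 CPM in wild type (SD, n = 2 each), or 1.75 higher on the log2 scale (SE 0.33, edgeR adjusted p = 0.00246).

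With HD adapters FUL rose by 1.93 (log2, SE 0.52, edgeR adjusted p = 0.0338), and with standard adapters it had a value of 1.60 that did not pass (SE 0.52, adjusted p = 0.0877), though DESeq2 called it there (1.60). The HD call was lost on leaving out dcl1 HD replicate 2 (1.64), wild-type HD replicate 1 (1.67) or wild-type HD replicate 2 (2.30). The difference between the HD and standard values did not pass the test (0.33, 95% interval −1.15 to 1.81). FUL is also active in flowers and at the shoot apex. The 8 flower markers summed to between 0.0921 and 1.64 CPM in dcl1, below every dcl1 value of FUL, and to between 0.913 and 3.66 CPM in wild type, a range that reaches above every wild-type value of FUL. In wild-type HD replicate 1, SEP1 had 2.15 CPM and SEP2 1.40 CPM. The part of these markers in the FUL values was not tested.

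AGL16 (AT3G57230, chr3:21177282-21181026), which holds the miR824 site printed above, was higher in dcl1 in all libraries. It had 26.5 and 27.9 CPM with HD and 19.2 and 15.3 CPM with standard adapters in dcl1, against 9.31 and 12.9 CPM with HD and 5.74 and 9.78 CPM with standard adapters in wild type. The genotypes were apart within each adapter, and least so across adapters, where the lowest dcl1 standard library (15.3 CPM) stood near the highest wild-type HD library (12.9 CPM). On summed counts AGL16 averaged 22.1 ± 3.37 CPM in dcl1 and 9.37 ± 2.78 CPM in wild type (SD, n = 2 each), a 2.35-fold difference (1.23 on the log2 scale, SE 0.22, edgeR adjusted p = 0.00191).

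AGL16 rose by 1.28 with HD adapters (SE 0.30, adjusted p = 0.0145 by edgeR) and by 1.14 with standard adapters (SE 0.30, adjusted p = 0.0334). The HD call was lost on leaving out dcl1 HD replicate 2 (1.25) or wild-type HD replicate 1 (1.09). The standard call was lost on leaving out dcl1 standard replicate 1 (0.97), on leaving out wild-type standard replicate 1 (0.82) and when the 4 standard libraries alone were fitted (1.15).

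**Figure D3:**
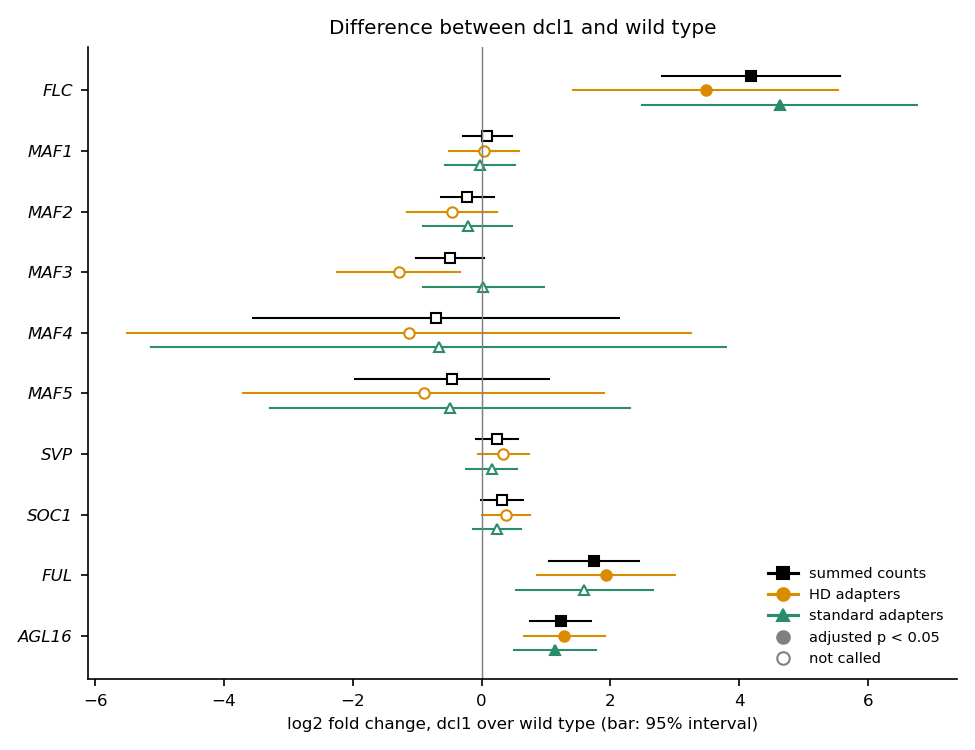
Log2 fold change of dcl1 over wild type for the 10 genes on summed counts (squares), with HD adapters (circles) and with standard adapters (triangles), with 95% intervals as bars and filled symbols for adjusted p under 0.05. FLC, FUL and AGL16 lie right of 0 in each estimate, and MAF4 has the widest bar in each estimate.

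None of the 10 genes was called in a test of the adapters. In the test of whether the dcl1 difference itself depended on the adapter, 0 of the 10 genes were called, against 0.0256% of loci (5 of 19521 by edgeR, with 618 at an unadjusted p under 0.05). HD over standard libraries likewise gave 0 of 10, against 0.492% of loci (96, with 1574 at an unadjusted p under 0.05), and DESeq2 also called none of the 10 there. Neither model paired the libraries of an RNA sample, and with the RNA sample as block none of the 10 was called in either test. AGL16 had the smallest p of the 10 in HD over standard libraries (log2 fold change 0.59, SE 0.21, 95% interval 0.16 to 1.01, adjusted p = 0.350 by edgeR). Over 5 alternative fits with all libraries, that block among them, its adjusted p by edgeR or DESeq2 ran from 0.147 to 0.356. In AGL16 the HD library lay above the standard library in all 4 RNA samples, by 0.45 and 0.84 in dcl1 and by 0.65 and 0.39 in wild type on the log2(CPM + 0.5) scale. The same held for SOC1, by 0.16 and 0.32 in dcl1 and by 0.12 and 0.075 in wild type. For FLC the HD library lay below the standard library in both dcl1 samples, by −0.65 and −1.50 on that scale, and the HD over standard test gave −0.63 (SE 0.66).

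Ranked by mean CPM per kilobase of transcript, SOC1 and SVP led in both genotypes. In dcl1 the order was SOC1 (37.2), SVP (34.1), MAF1 (18.6), AGL16 (14.7), MAF2 (14.1), FUL (7.31), MAF3 (6.11), FLC (5.40), MAF5 (1.32) and MAF4 (0.259). In wild type it was SOC1 (29.8), SVP (29.0), MAF1 (17.5), MAF2 (16.4), MAF3 (8.59), AGL16 (6.21), FUL (2.17), MAF5 (1.82), MAF4 (0.421) and FLC (0.267). FLC thus stood last in wild type and at rank 8 in dcl1. Neighbours whose ranges over the RNA samples overlapped were SOC1 and SVP, AGL16 and MAF2, and MAF3 and FLC in dcl1, and SOC1 and SVP, MAF1 and MAF2, and MAF4 and FLC in wild type. The length used was the median of the annotated transcripts. Per kilobase of all annotated exons the dcl1 ranks were 3 for AGL16, 4 for FUL, 5 for MAF3, 6 for FLC, 7 for MAF1 and 8 for MAF2. In wild type MAF3 moved to rank 3 and MAF1 to rank 5 on that scale, and FLC stayed last.

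Of 20 listed FLC activators, such as FRI and the chromatin factors EFS and PIE1, all were tested and 0 were called on summed counts by edgeR (median log2 fold change −0.08). EFS, a histone H3 methyltransferase, had the smallest p of them, with 36.8 and 41.7 CPM in dcl1 and 32.0 and 30.2 CPM in wild type (0.34 ± 0.16 SE on the log2 scale, adjusted p = 0.219). ELF5 had a log2 fold change of −0.33, PIE1, which deposits the histone variant H2A.Z, 0.30, and FRL2, a FRI relative, 0.55 (adjusted p = 0.511). Of 19 listed FLC repressors, of the autonomous pathway, vernalization and Polycomb, 18 were tested and 0 were called (median 0.05). The 4 with the smallest p were FLK, an RNA-binding protein (0.34), VRN1, which maintains silencing (−0.33), and the Polycomb and chromatin proteins FIE (0.46) and FVE (0.23). No gene of either list was called with HD or with standard adapters. With 8.85% of all loci called on summed counts, 4.33% with HD and 4.23% with standard adapters, counts of 0 in lists of this size do not set them apart from other loci.

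Of 22 photoperiod genes and floral integrators, 17 were tested on summed counts, of which 1 rose and 4 fell (median 0.12), against 4.3% of all loci higher and 4.55% lower. TEM2, a repressor of FT, fell most, with 11.0 and 21.5 CPM in dcl1 against 53.2 and 51.2 CPM in wild type (−1.69 ± 0.23 SE on the log2 scale, edgeR adjusted p = 0.000145). Its paralog TEM1 fell by 0.78, the photoreceptor gene PHYA by 0.65, and CIB1, which encodes an activator of FT, by 1.28. The exons of CIB1 are wholly covered on the same strand by those of AT4G34540, so its counts are uncertain. SPA1, a repressor of light signalling, rose by 0.84. Without dcl1 replicate 1 none of the list rose and 1, TEM2, fell. Without wild-type replicate 2 none rose, and without wild-type replicate 1 there were 2 that rose, SPA1 and CDF1. FT itself, named here after its values were seen, had 14 and 9 counts with HD and 0 and 0 with standard adapters in dcl1, against 33 and 1 with HD and 1 and 0 with standard adapters in wild type, and did not pass.

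Of 17 genes of the age pathway, 6 rose and 0 fell on summed counts (median 0.66), against 4.3% of all loci higher. All 6 are SPL transcription factor genes targeted by miR156, whose decline with plant age is known to free SPL factors that activate flowering genes, FUL and SOC1 among them. SPL9 had 11.4 and 8.96 CPM in dcl1 and 1.66 and 2.02 CPM in wild type (2.46 ± 0.32 SE on the log2 scale, edgeR adjusted p = 8.13e-05). SPL11 rose by 2.19, SPL10 by 1.84, SPL3 by 1.74, SPL2 by 1.27 and SPL4 by 0.80. Exons of an opposite-strand locus cover 97.3% of SPL3, whose counts are therefore uncertain. With HD adapters 5 of the 17 rose and with standard adapters 4, against 2.07% and 1.87% of all loci in the same order, and 0 fell with either. In the list of targets of miR156 and miR172, none of the AP2-like genes passed the test.

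Of 29 other MIKC-type MADS-box genes, 8 had enough counts to be tested and 1 rose, against 4.3% of all loci higher and 8.85% called, and 1 call in so short a list does not set it apart. AGL42, a relative of SOC1 known to promote flowering, had 10.2 and 9.95 CPM with HD and 7.46 and 9.70 CPM with standard adapters in dcl1, against 0 and 0.724 CPM with HD and 1.36 and 0.632 CPM with standard adapters in wild type. Its genotypes did not overlap, and its summed log2 fold change was 3.80 (SE 0.36, adjusted p = 2.83e-06 by edgeR). It was also called with HD (4.60) and with standard adapters (3.14). AGL19, SEP1 and PI, the next by p, had values of 2.07, −1.59 and −1.98 and did not pass.

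**Figure D4:**
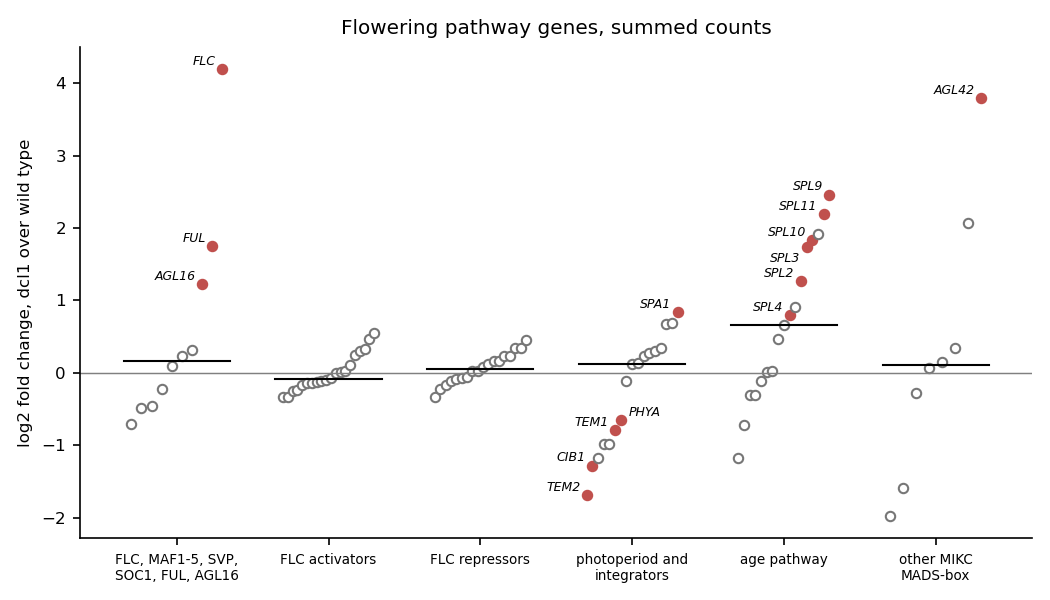
Log2 fold change of dcl1 over wild type on summed counts for each tested gene of the 10 MADS-box genes and of 5 lists of flowering genes, sorted within each list, with called genes filled and named and a line at each median. No FLC activator or repressor is called, while 6 SPL genes and AGL42 lie above 0 and TEM1, TEM2, PHYA and CIB1 below.

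Loci whose pattern over the 8 libraries was nearest to that of FLC were sought among 17071 loci with a mean of at least 1 CPM, by the root mean square difference of log2(CPM + 0.5) after centring. They were BAM5, a beta-amylase gene (0.364), AT1G48750 (0.452) and AT4G31330 (0.460). BAM5 ran from 12.4 to 38.2 CPM in dcl1 and from 1.25 to 2.71 CPM in wild type. Nearest to AGL16 were AIR3 (0.203), AT4G04223 (0.204) and AT2G47630 (0.231). AIR3 ran from 23.4 to 35.7 CPM in dcl1 and from 11.0 to 17.4 CPM in wild type.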

How the data were processed

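Leaf RNA was extracted with Tri-reagent and messenger RNA was purified on Dynabeads, per the labels' protocols. The deposited files hold raw read counts per locus, and the authors' build was TAIR10, per the submitters' processing notes. Aligner, counting tool, strandedness and the handling of reads that match several places were not given in the sources used here. Loci that a file does not list were taken as 0. Of the 22546 loci, 22444 matched the TAIR10.1 annotation, the source of the coordinates and sequences.

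Counts were tested with edgeR 4.0.16 in R 4.3.3 (filterByExpr, TMM, quasi-likelihood F test, two-sided, Benjamini-Hochberg adjustment over all loci, called at an adjusted p under 0.05). Summed counts were fitted over 4 RNA samples. Contrasts within an adapter came from 1 model over all 8 libraries, and HD over standard from a model with genotype and adapter. Both models treated the libraries of an RNA sample as independent. The SE is the absolute log2 fold change over the square root of F, with 95% intervals from the t distribution, and is approximate near 0 counts. CPM uses TMM-scaled library sizes. Only the summed-count and HD-adapter fits were run on simulated counts. These were drawn independently for each library, without RNA shared between libraries, and their outcome is not reported here.

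The genes, lists and comparisons were chosen with earlier results of these data known. Named from each list were every called gene and up to 4 with the smallest p, and for FLC and AGL16 the 3 nearest loci. Alternatives were RLE size factors, no filter, no ribosomal RNA loci, DESeq2 1.42.0, a block and leaving out each replicate. The block was the replicate number in the genotype comparisons and the RNA sample in the adapter tests.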

Additional observations from a re-analysis of the deposited data

How the results depend on the processing

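FLC, FUL and AGL16 kept their call on summed counts under every alternative that kept all 4 RNA samples. These include 1 added after seeing the data, in which the dcl1 HD library of replicate 2 was left out of the sums (log2 fold changes of 4.41, 1.64 and 1.09). Leaving out 1 RNA sample gave log2 fold changes down to 3.47 for FLC, 1.62 for FUL and 0.97 for AGL16. Such fits have 1 sample in a genotype and take their spread from the other genotype alone, so calls in them carry little weight. Of 685 recomputed values, 631 kept their direction and side of the threshold, or for counts stayed within 1.5 times. With HD adapters the loci called were 1332 with no low-count filter and 461 to 1089 on leaving out 1 library, where 0 to 4 of the 10 genes were called. With standard adapters they were 1247 with DESeq2 and 418 to 996 on leaving out 1 library, where 1 to 2 of the 10 genes were called, against 3 with DESeq2 and 1 when only the 4 libraries of that adapter were fitted. Loci whose dcl1 difference depended on the adapter numbered 3 with RLE size factors, 16 with no filter and 3 without ribosomal RNA loci. They numbered 36 with the RNA sample as block, against 5 in the main fit, and 3 to 13 on leaving out 1 library. HD over standard gave 190 loci with no filter, 179 with DESeq2 and 232 with the RNA sample as block, against 96 in the main fit. Among photoperiod genes 0 to 2 rose and 1 to 3 fell on leaving out 1 RNA sample, and among other MIKC genes 0 to 1 fell, the 1 being SEP1 without dcl1 replicate 1. The cause of these shifts was not tested.

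Signs turned only among values reported above as not passing the test, on leaving out 1 replicate; values fitted against libraries at 0 are no bounds. On summed counts MAF4 ran from −2.03 to 0.45. With HD adapters MAF1 ran from −0.16 to 0.21, MAF2 from −1.31 to 0.057 and MAF5 from −8.23 to 0.043. With standard adapters MAF1 ran from −0.27 to 0.18, MAF3 from −0.068 to 0.12 and MAF4 from −1.61 to 5.38. The difference between adapters ran from −2.76 to 4.94 for FLC, from −0.031 to 0.70 for FUL and from −0.30 to 0.46 for AGL16.

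Replicate numbers were not found to pair the genotypes. Differences of replicate 1 from replicate 2 correlated across loci at 0.131 between the wild-type HD and standard libraries and at 0.0505 between the dcl1 ones, and at −0.0079 to 0.0024 across genotypes. With the replicate block 2173 loci were called on summed counts, FLC, FUL and AGL16 among them.

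With 2 RNA samples a genotype, FLC in wild type (0 to 21 counts a library) and MAF4 (0 to 30) rested on few counts. MAF5 had more counts, but its dcl1 HD libraries held 65 and 0. What set the precision of these genes was not tested.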
